A study of Mus musculus with 2 samples.

Results

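The promoters described here are the intermediate-CpG promoters of autosomal protein-coding genes, the class that lies between CpG-island promoters and CpG-poor ones. The class is defined by sequence, and its members also needed reads in both libraries. Around the most 5′ annotated start site of each gene, the stretch of 1 kb on either side was read in windows of 500 bp moved by 50 bp. A promoter belonged to the class when at least 1 window had an observed-to-expected CpG ratio of 0.48 or more and no window had both a ratio above 0.75 and a GC content above 55%. Of 20807 genes, 3873 met the rule, and 2923 of these promoters held at least 3 cytosines that could be compared. Of the other 950, 728 had no such cytosine and 222 had 1 or 2. The 2923 promoters made up the intermediate class among 13774 covered promoters, next to 9931 CpG-rich and 920 CpG-poor ones.

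DNA methylation was mapped in myotubes differentiated from mouse C3H myoblasts, a myogenic cell line. One culture was transfected with a control siRNA (siCon) and the other with an siRNA that targets H19, a long non-coding RNA (siH19), and DNA was taken 48 h later. The question was which genes change their methylation when H19 is lowered. Each group was 1 library from 1 line in culture, both had been through the same differentiation in low-serum medium, and there was no untransfected library. The method, reduced representation bisulfite sequencing, cuts DNA with MspI (CCGG) and TaqαI (TCGA), sequences the short fragments after bisulfite treatment and counts, at each CpG cytosine, the reads that kept a C. Transcript levels were not analysed here, so neither the lowering of H19 nor the myotube identity was checked against expressed markers.

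CpG methylation is laid down by the DNA methyltransferases, which take the methyl group from S-adenosylmethionine, and a methylated promoter is usually a silent one. CpG-island promoters are as a rule kept free of methylation whether or not the gene is used, whereas CpG-poor promoters are mostly methylated. Intermediate promoters are known as the class in which methylation varies most between tissues, and germline genes are the textbook example of members that are methylated in body cells.

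The siCon file listed 5453019 CpG cytosines with read counts that sum to 104999613. The siH19 file listed 5266846 cytosines with counts that sum to 106372792. The medians were 12 and 13 reads per cytosine. A read over several cytosines counts at each of them, in these sums and in the read totals of promoters. A cytosine was compared when both libraries read it at least 5 times and it lay outside CCGG and TCGA. Members held 59580 such cytosines, with a median of 18 per promoter (range 3 to 109). Summed over cytosines, the median was 526 reads per promoter in siCon and 524 in siH19. A promoter's level is the mean of its cytosines' levels, weighted in the same way in both libraries by the reads behind each. Intervals of a promoter's difference are 95% intervals for counting error only, since with 1 library per group there is no replicate spread. They also take the cytosines of a promoter as read by separate reads, which they were not. A member's cytosines came from a median of 5 restriction fragment strands, and 519 members had only 1 or 2, so that neighbouring cytosines were read by the same molecules. Of the members, 282 shared a cytosine with another member.

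Sequences of 3 promoters show both ends of the range. They are the 250 bases 5′ of the start, read 5′ to 3′ on the gene's strand from GRCm38 (the RefSeq sequence of the assembly), outside every annotated exon. Capitals mark the CpGs at which both libraries had countable cytosines. Tpm2, a tropomyosin of striated muscle, is from chr4:43523766-43524015 (minus strand). Sohlh2, a transcription factor of germ cells, is from chr3:55181778-55182027 (plus strand), and Prss48, a serine protease gene, from chr3:86002492-86002741 (minus strand).
Tpm2: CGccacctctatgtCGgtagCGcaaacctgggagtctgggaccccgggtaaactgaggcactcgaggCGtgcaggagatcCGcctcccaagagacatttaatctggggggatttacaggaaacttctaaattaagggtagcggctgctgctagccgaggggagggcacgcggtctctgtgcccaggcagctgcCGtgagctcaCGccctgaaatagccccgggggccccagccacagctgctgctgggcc
Sohlh2: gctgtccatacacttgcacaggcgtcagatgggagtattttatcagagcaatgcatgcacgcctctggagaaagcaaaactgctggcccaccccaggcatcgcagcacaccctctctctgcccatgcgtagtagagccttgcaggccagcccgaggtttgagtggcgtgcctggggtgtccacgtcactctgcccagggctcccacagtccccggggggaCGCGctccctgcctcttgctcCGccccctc
Prss48: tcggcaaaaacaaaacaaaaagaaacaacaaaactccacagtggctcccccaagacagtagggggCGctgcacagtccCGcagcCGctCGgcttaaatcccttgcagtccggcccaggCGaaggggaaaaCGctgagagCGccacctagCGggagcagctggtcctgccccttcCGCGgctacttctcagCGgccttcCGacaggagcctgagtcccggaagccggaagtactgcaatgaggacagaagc
The 7 marked CpGs of Tpm2 ran from 0% to 15.3% in siCon and from 0% to 7.50% in siH19. At Sohlh2 the 3 marked CpGs, all within 30 bases of the start, were 95.8% to 100% methylated in siCon and 94.2% to 100% in siH19. The 12 marked CpGs of Prss48 averaged 93.1% and 93.5%, and the lowest of them stood at 69.0% and 66.7%. All 3 stretches hold between 11 and 16 CpGs, so promoters of like CpG number stood at opposite ends of the scale.

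As a class, intermediate promoters were mostly little methylated but with a long tail. The median level was 11.4% in siCon (quartiles 1.99% and 37.2%) and 11.4% in siH19 (2.13% and 38.1%). The lowest 5 points of the scale held 1081 members in siCon and 1071 in siH19. With below 20% taken as low and above 80% as high, 61.2% of the members were low in siCon (exact binomial interval over promoters 59.4% to 62.9%), 33.1% intermediate (31.4% to 34.9%) and 5.71% high (4.90% to 6.62%). In siH19 the shares were 61.2%, 33.2% and 5.58%. The intervals of the shares take promoters as independent, though some share cytosines, and hold no counting error of reads. CpG-rich promoters had a median of 1.27% and 1.32%, and 89.4% of them were low in siCon. CpG-poor promoters had a median of 43.4% and 43.1%, and 28.2% of them were low. Of the members, 1742 were low in both libraries, 911 intermediate in both and 153 high in both. A further 117 crossed a limit, and none was low in one library and high in the other.

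**Figure D1:**
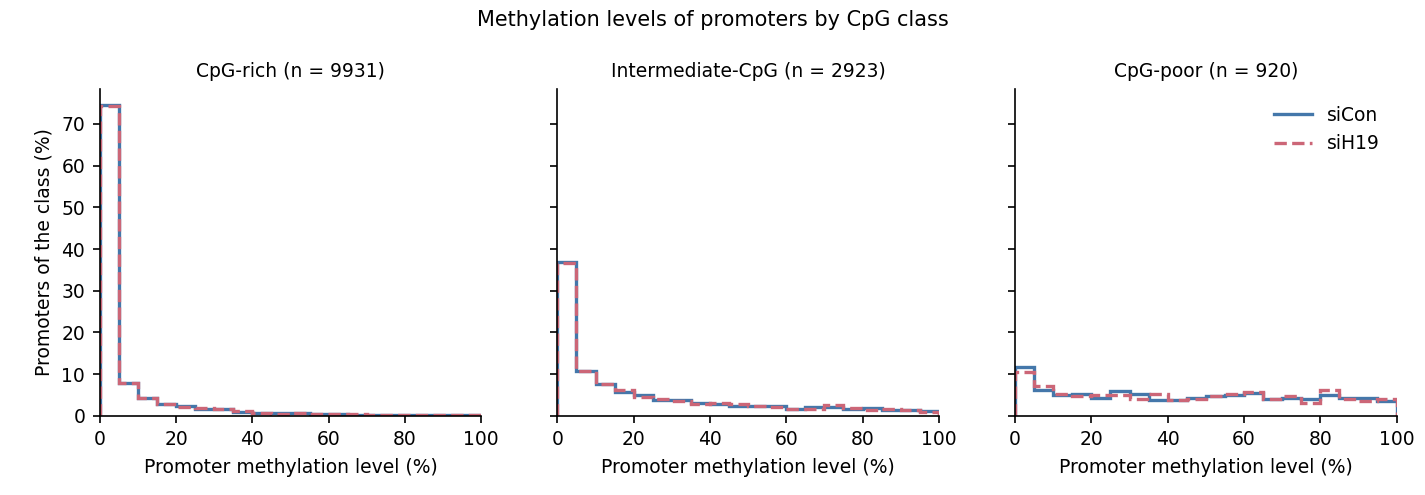
Share of promoters (y axis, % of the class) by promoter methylation level (x axis, %, in steps of 5 points) for CpG-rich (n = 9931), intermediate-CpG (n = 2923) and CpG-poor (n = 920) promoters, with siCon as a solid and siH19 as a dashed line. The intermediate class peaks below 5% methylation and tails off to 100%, and the lines of both libraries lie on each other.

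The least methylated members with 20 or more cytosines were genes of varied function. Plscr3, a mitochondrial phospholipid scramblase, had no methylated read among 595 in siCon and 431 in siH19, summed over 20 cytosines. Taken as independent, these allow up to 0.504% and 0.696%. A read counts at each cytosine it covers in the totals of this paragraph, so its upper limits are too low for the molecules read. Hmox1, the inducible heme oxygenase, had none among 726 reads in siCon, which allows up to 0.413%, and stood at 0.190% in siH19 over 22 cytosines. Kat2a, a histone acetyltransferase, stood at 0.266% in siCon and at 0 of 924 reads in siH19, which allows up to 0.325%. Dpm2, a subunit of dolichol-phosphate-mannose synthase, was at 0.110% and 0.233%. Fuz, a factor for cilium formation, was at 0.218% and 0.189%. Zfhx4, a homeobox gene, stood at 0.146% in siCon and at 0 of 1307 reads in siH19, and Kiss1r, the kisspeptin receptor, at 0 of 651 reads in siCon and 0.323% in siH19. For each of these 7 the counting interval of the difference held 0. They were chosen for a low mean level of both libraries, which leaves little room for a difference. The counting error also adds 0.5 to the methylated and unmethylated reads of each cytosine, which widens intervals near 0. The intervals are therefore no test of a difference here.

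The 8 most methylated members stood at 86.95% or above in both libraries. Sohlh2, with 60 cytosines the best covered of the 8 most methylated members, was at 88.8% in siCon and 87.8% in siH19, and Zglp1, another germ-cell transcription factor, at 90.6% and 86.95%. Pnldc1, the nuclease that trims piRNAs, was at 94.9% and 93.6%. Gp1bb, a platelet glycoprotein, was at 93.4% and 96.4%, and Pcdhgc4, a protocadherin of the gamma cluster, at 91.5% and 93.2%. Ccdc114, needed to dock the dynein arms of motile cilia, was at 91.1% and 91.8%, Prss48 at 89.9% and 90.3%, and Tmem223, a transmembrane protein gene, at 96.8% and 96.8%. For each of the 8 the counting interval of the difference held 0. As they were chosen for a high mean level of both libraries, there was little room for a difference, and this is no test of one.

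A middling level did not have 1 form. Among 92 members with at least 20 cytosines and 40% to 60% methylation in both libraries, the SD between a promoter's cytosines ran from 10.1 to 40.7 points, with a median of 26.6. The most even was the stretch that Cspg4 and Odf3l1 share. Cspg4 encodes the NG2 proteoglycan and Odf3l1 a relative of sperm-tail proteins. Their 23 common cytosines averaged 42.7% in siCon and 41.1% in siH19. Npb, the precursor of neuropeptide B, was also even, with an SD of 11.5 points at 41.2% and 47.4%, as was Slc5a7, the choline transporter of cholinergic nerve endings, with 15.4 points at 46.9% and 44.9%. The least even were Xkr8, a phospholipid scramblase (SD 40.7 points), Tcea3, a transcription elongation factor (40.7), Asb4 (38.1) and Actrt2 (37.7), which mixed nearly unmethylated with nearly fully methylated cytosines.

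Across the class, methylation was lowest at the start site. The mean over cytosines was 28.9% in siCon and 28.7% in siH19 at 1000 to 900 bp upstream, rose to 33.5% and 33.9% at 800 to 700 bp and fell to 14.2% and 14.2% in the last 100 bp before the start. Downstream it climbed to 25.7% and 25.8% at 600 to 700 bp and ended at 21.02% and 21.7% in the last 100 bp. The values rest on 157 promoters in the outermost upstream bin and 1129 in the bin before the start, so different promoters enter different bins. CpG-rich promoters had the same trough at 4.29% and 4.41%, and CpG-poor ones at 34.8% and 35.6%.

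**Figure D2:**
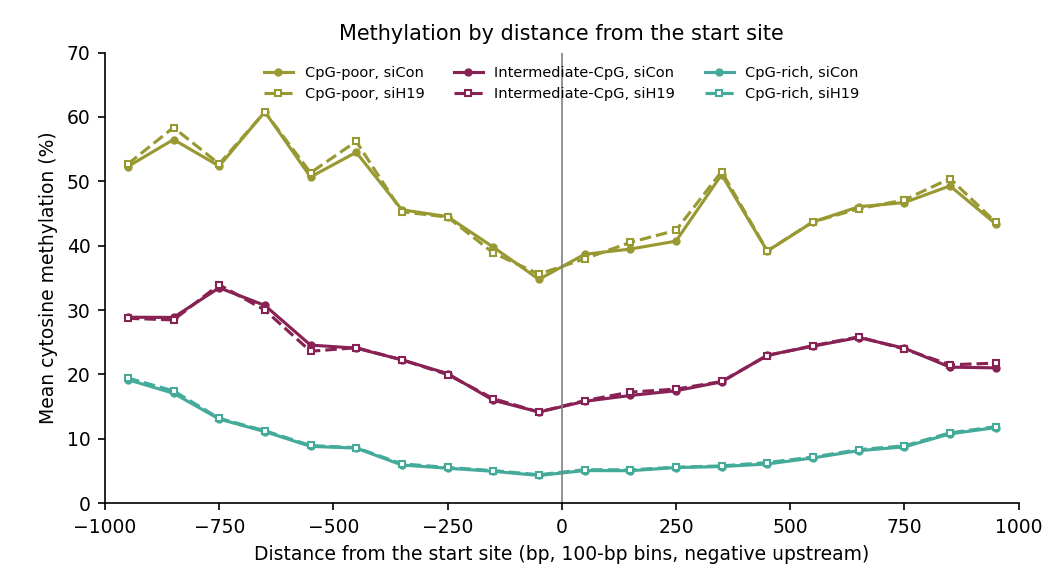
Mean methylation of the covered cytosines (y axis, %) in 100-bp bins of distance from the start site (x axis, bp, negative upstream) for the 3 promoter classes, siCon with solid and siH19 with dashed lines. Intermediate promoters lie between the other classes at every distance and are lowest, at 14.2% in both libraries, in the bin just before the start.

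The trough hides steps in single promoters. Of the members, 578 had at least 8 cytosines on each side of the start. Their median difference, downstream minus upstream, was 0.03 points, but 56 were at least 20 points lower downstream and 36 at least 20 points higher. Pex16, a peroxisome assembly factor, fell from 87.6% upstream to 0.528% downstream in siCon and from 89.1% to 0.767% in siH19. Slc25a24, a mitochondrial carrier, went from 82.6% to 1.41% and from 86.8% to 0.193%. Coa3, a cytochrome oxidase assembly factor, went from 73.8% to 3.70% and from 80.2% to 3.51%, and the divergent gene Cntd1, a meiotic factor, shares these 46 cytosines and so shows the mirror image. In the other direction, the stretch shared by Islr and Islr2, which encode leucine-rich immunoglobulin-superfamily proteins, rose from 3.73% to 77.1% in siCon and from 5.49% to 77.6% in siH19. Cilp2, a cartilage matrix protein gene, rose from 21.4% to 86.5% and from 18.2% to 84.5%, and Lrrc15, a leucine-rich membrane protein gene, from 5.18% to 66.9% and from 7.52% to 69.4%. Each step had the same direction and nearly the same size in both libraries.

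Sequences upstream of 2 promoters that are methylated before the start and little methylated after it are given in the same way, from GRCm38. Tcea3 is from chr4:136247479-136247728 and Rpl39l, a relative of the ribosomal protein gene L39 used in testis, from chr16:10169976-10170225, both on the plus strand.
Tcea3: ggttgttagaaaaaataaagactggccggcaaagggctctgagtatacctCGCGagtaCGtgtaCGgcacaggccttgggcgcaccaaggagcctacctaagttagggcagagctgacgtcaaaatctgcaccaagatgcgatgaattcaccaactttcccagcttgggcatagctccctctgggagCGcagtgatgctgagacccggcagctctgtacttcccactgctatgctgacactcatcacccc
Rpl39l: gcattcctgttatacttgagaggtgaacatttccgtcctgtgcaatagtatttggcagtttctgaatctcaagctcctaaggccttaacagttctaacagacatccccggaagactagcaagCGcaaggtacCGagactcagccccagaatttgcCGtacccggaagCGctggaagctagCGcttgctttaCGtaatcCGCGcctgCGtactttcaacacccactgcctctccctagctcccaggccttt
The 5 marked CpGs of Tcea3 stood between 60.0% and 97.6% in siCon and between 64.1% and 98.4% in siH19, on 83 to 85 and 62 to 64 reads. Over the whole promoter Tcea3 had 83.1% upstream and 11.98% downstream in siCon, and 85.4% and 11.1% in siH19. At Rpl39l the 9 marked CpGs averaged 88.8% and 88.6%, and the nearest of them, 44 bases before the start, was at 95.7% and 87.4%. Downstream of its start the level was 18.4% in siCon and 18.5% in siH19.

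**Figure D3:**
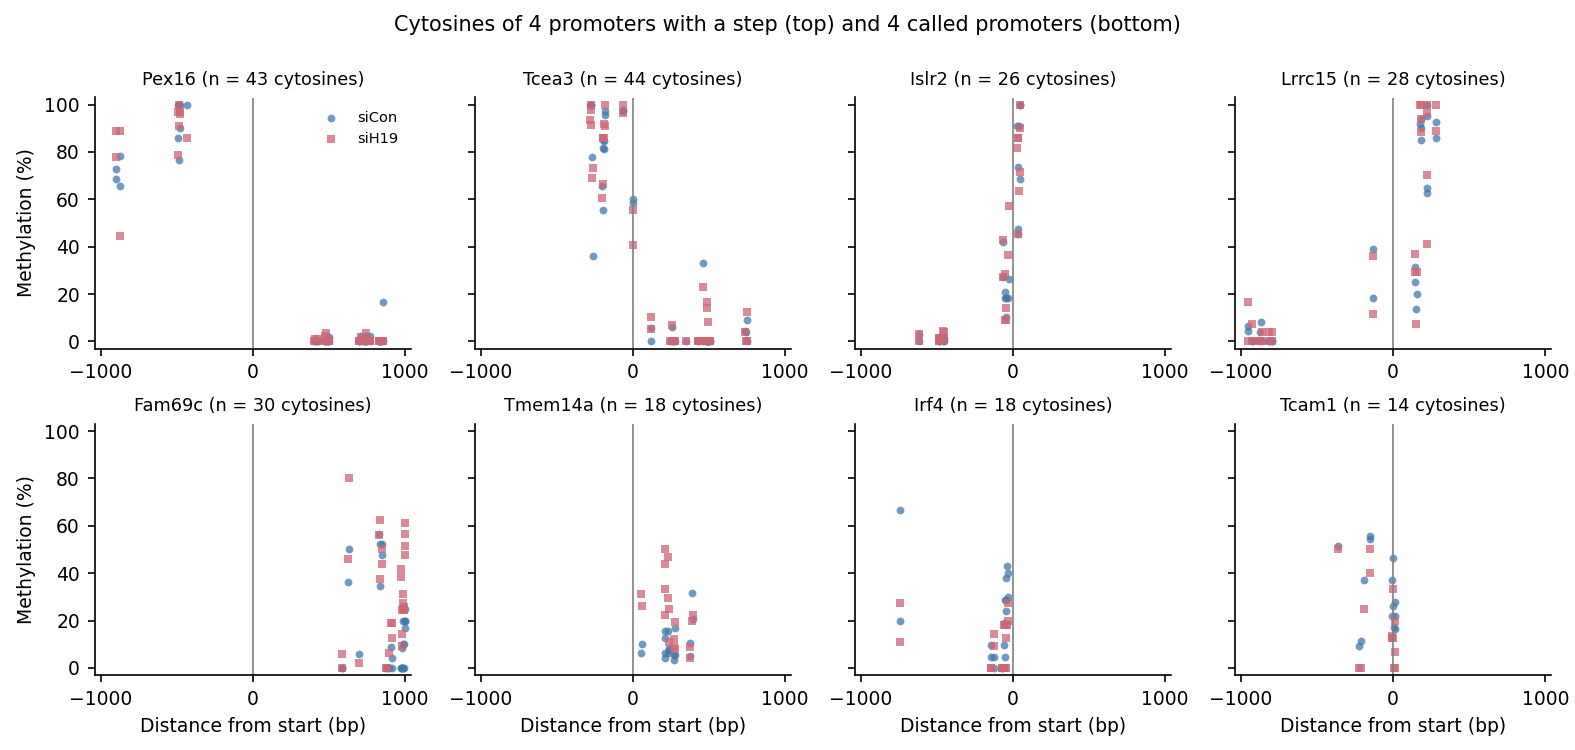
Methylation of single cytosines (y axis, %) by distance from the start site (x axis, bp) in siCon (circles) and siH19 (squares). The top row holds 4 promoters whose level differed between the sides of the start. The bottom row holds 4 whose level differed between the libraries in the stratified test. The sides of Pex16, Tcea3, Islr2 and Lrrc15 differ in the same direction in both libraries. In contrast, 23 of 30 squares of Fam69c and 16 of 18 of Tmem14a lie above their circles, and 14 of 18 of Irf4 and 14 of 14 of Tcam1 below.

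The level followed the CpG ratio even within the class. Members whose best window had a ratio of 0.48 to 0.55 had a median of 30.8% in siCon and 30.9% in siH19 (427 promoters). The median was 17.9% and 18.2% at 0.55 to 0.65 (828 promoters), 7.32% and 7.64% at 0.65 to 0.75 (1326) and 3.51% and 3.42% above 0.75 (342). Spearman's correlation of ratio and level across promoters was -0.30 in siCon and -0.31 in siH19, as a description over 2923 promoters, some of which share cytosines. With the GC content of the whole stretch the correlation was -0.03 and -0.04. Close to the limits of the class, members at 0.48 to 0.50 had a median of 34.6% and 34.9% (122 promoters), and CpG-poor promoters at 0.46 to 0.48 one of 46.7% and 42.0% (113), and these differences were not tested. Members that reached 0.70 to 0.75 at a GC content over 55% had 3.79% and 4.11% (754), and CpG-rich promoters at 0.75 to 0.80 had 2.74% and 3.04% (1021).

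Repeat content and level were nearly uncorrelated over all members (Spearman 0.04 in siCon and 0.04 in siH19). The 31 members with at least 50% of their stretch soft-masked as repeats had medians of 72.4% in siCon and 68.4% in siH19, against 11.05% and 11.1% for the 918 members with under 10% masked, 10.3% and 10.7% for 1790 members with 10% to 30% and 22.8% and 23.3% for 184 members with 30% to 50%. The 308 members with a second protein-coding start within 1 kb had medians of 2.45% and 2.82%, and 84.4% of them were low in siCon. Members without one had 13.4% and 13.1%.

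Short motifs were searched on both strands in the 250 bases before and 50 after the start. None of the 5 contains another. The GC box GGGCGG, bound by Sp factors, was found in 51.1% of the members low in both libraries, 38.6% of those intermediate in both and 26.8% of those high in both, against 43.8% of all 20807 promoters. The Ets motif CCGGAAG was in 13.4%, 5.93% and 5.88% of these groups, against 11.04% of all promoters. The TATA box TATAAA went the other way, with 8.44%, 12.3% and 16.3% against 12.7%. The CRE TGACGTCA (2.07%, 1.65% and 1.961%, against 2.43%) and the muscle-type E-box CAGCTG (17.1%, 18.4% and 16.3%, against 15.5%) were about as frequent in each group. The GC box, the Ets motif and the CRE contain a CpG, and the part of CpG content in these shares was not tested.

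Of 11 gene lists, germline genes were the most methylated. The list has 29 promoters in the class, of which 23 were covered, and none was low. In both libraries 10 were high and 12 intermediate, and 1 crossed the limit. The list median was 77.8% in siCon and 79.9% in siH19, with a median CpG ratio of 0.63, against 11.4%, 11.4% and 0.67 for all members. After Sohlh2, the high members with the most cytosines were Sycp2, a protein of the synaptonemal complex, at 88.7% and 84.9%, and Tuba3a, a testis tubulin, at 83.3% and 86.2%. The lowest level of any member was 33.8% in siCon and, at a different member, 30.4% in siH19.

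Muscle genes split into groups. Of 14 covered members 7 were low, 5 intermediate and 2 high. Itga7, the laminin receptor of muscle, was at 0.803% in siCon and 0.624% in siH19, Actn3, the alpha-actinin of fast fibres, at 2.09% and 3.55%, and Tpm2 at 5.15% and 4.99%. In contrast, Mymx, the fusion peptide of myoblasts, was at 83.9% and 86.5%, and Klhl41, a kelch protein of the sarcomere, at 80.6% and 83.0%. For none of the 14 was the adjusted p of the difference under 0.05 in the stratified test (background 6.94% of all promoters). With 14 promoters this cannot be told from that share.

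Genes of mesenchymal cells and matrix and genes of the interferon response were mostly unmethylated. Of 29 mesenchymal members 23 were low, with a list median of 2.13% in siCon and 3.32% in siH19. Tagln2, a transgelin, was at 0.875% and 0.511%, Ereg, an EGF-family ligand, at 0.675% and 0.824%, and Fbln2, a fibulin, at 16.8% and 18.2%. The only high member, Fbn1, rests on 4 cytosines, at 96.8% and 98.01%. Of 20 interferon-response members 16 were low, with a list median of 3.85% and 3.50%. Psme2, a proteasome activator subunit with 86 cytosines, was at 1.32% and 1.57%. Psmb9, an immunoproteasome subunit, and Tap1, the peptide transporter, share 40 cytosines at 4.89% and 4.94%.

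Among 15 epithelial genes 5 were low, 7 intermediate and 3 high. Jup, the plakoglobin gene, was at 1.17% in siCon and 2.40% in siH19, Esrp1, an epithelial splicing factor, at 15.7% and 12.5%, and Grhl3, a grainyhead factor, at 14.7% and 14.7%. The claudin genes Cldn4 (83.4% and 83.1%) and Cldn6 (88.4% and 88.0%) and the keratin gene Krt8 (96.4% and 95.6%, 8 cytosines) were high. Of 10 pluripotency genes 2 were low, among them the RNA-binding factor Lin28a at 10.2% and 7.80%, and 8 intermediate. Of 9 liver genes 2 were low, Ass1 of the urea cycle at 2.50% and 2.73% and Fah of tyrosine breakdown at 1.10% and 0.320%, and 7 were intermediate. Neuronal and glial genes had 12 of 20 low, among them the synaptic genes Syt1 (16.01% and 19.4%) and Cplx2 (14.4% and 15.3%), and none high.

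Of 10 haematopoietic and immune-cell genes 5 were low, among them Epor, the erythropoietin receptor, at 4.75% and 4.52%, 4 were intermediate, and Runx3, on 3 cytosines, was high at 85.2% and 87.9%. Of 12 members in the imprinted list 7 were low, among them Trappc9 (4.48% and 3.84%) and Calcr (2.77% and 1.73%), and 5 were intermediate. Of 11 genes of the methyl cycle and DNA methylation 6 were low, 4 intermediate and 1 high. In this list Mtap, which salvages methylthioadenosine, was at 0.135% and 1.05%, Tpmt, a thiopurine methyltransferase, at 2.85% and 3.34%, and Mat2b, a regulatory subunit of methionine adenosyltransferase, at 19.2% and 19.9%. As3mt, high at 100% and 96.8%, rests on 3 cytosines. The start taken for a gene is its most 5′ annotated one, which need not be the one used in these cells.

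**Figure D4:**
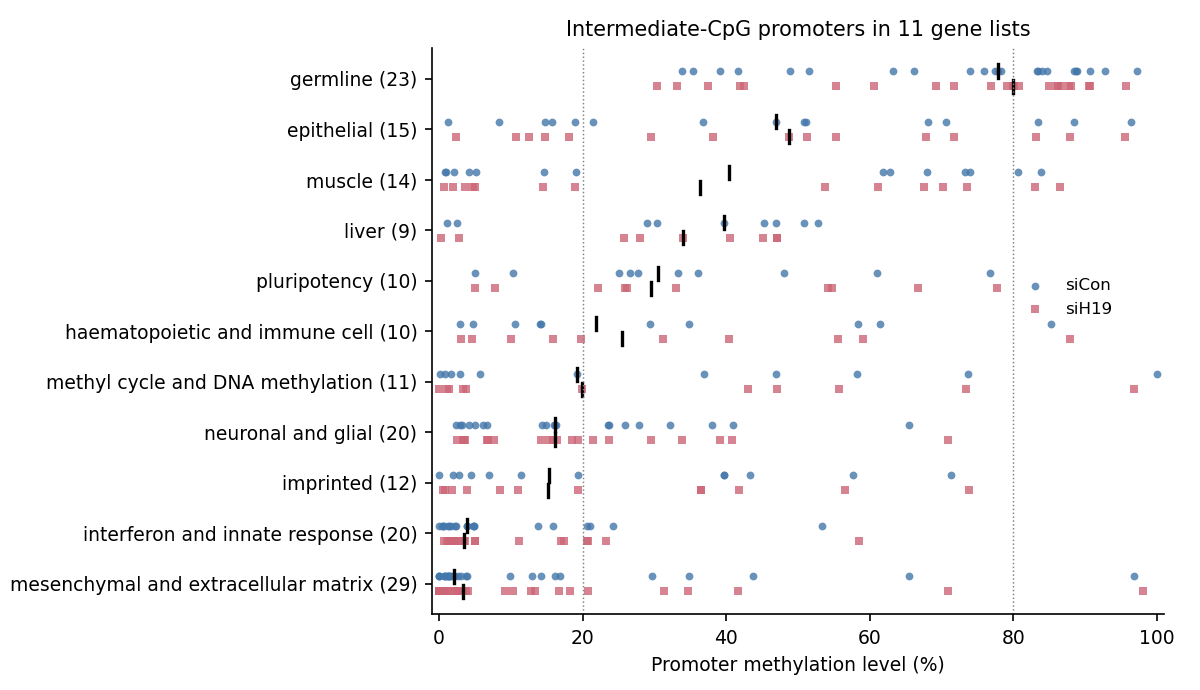
Promoter methylation level (x axis, %) of each intermediate-CpG promoter in 11 gene lists (y axis, number of promoters in brackets), siCon as circles and siH19 as squares, with black bars at the list medians and dotted lines at 20% and 80%. Germline promoters lie at 30.4% or above with medians of 77.8% and 79.9%, and mesenchymal and interferon-response promoters crowd below 20%.

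Between the libraries the levels of the class differed little. The median difference, siH19 minus siCon, was 0.132 points, against 0.0826 over all 13774 promoters. Of the members 87.8% were within 5 points, and the middle 95% ran from -7.29 to 7.75 points. The levels of both libraries had a Pearson correlation of 0.991 across members, given as a description. The spread was narrower with more cytosines, from -14.6 to 12.8 points for members with 3 to 5 cytosines to -2.13 to 3.50 points for those with 41 to 109. The median siCon level fell over the same groups, from 24.7% to 5.95%. At 26284 CpGs with both strands counted, the strands of a CpG differed on average by 6.04 points within siCon and 5.80 within siH19, while the libraries differed by 5.71 on the plus and 5.68 on the minus strand.

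Each promoter was tested with an exact two-sided test of a common odds ratio stratified by cytosine, with Benjamini-Hochberg adjustment over all 13774 promoters. The test compares these libraries, not the conditions. It gave p under 0.05 for 426 members (14.6%, background 20.1% of all promoters) and an adjusted p under 0.05 for 118 (4.04%, background 6.94%), of which 70 were higher in siH19 (background 4.56%) and 48 lower (background 2.38%). At least 10 points of difference were seen in 73 members (2.50%, background 1.35%). Both conditions, taken as a call, were met by 16 members (0.547%, background 0.225%), 10 higher in siH19 (0.342%, background 0.145%) and 6 lower (0.205%, background 0.0799%). A comparison added after the data were seen took promoters with a mean level of 20% to 80%, where 10 points are more easily reached. Of these, 12 of 968 members were called (1.24%), 7 of 1001 CpG-rich promoters (0.699%) and 6 of 509 CpG-poor ones (1.18%), against 25 of 2478 in all (1.01%).

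None of the 16 calls remained when each read was counted about once. With the middle cytosine of each restriction fragment and strand alone, a choice made after the data were seen, 0 of 2914 members were called with the stratified exact test (background 0.00726%), and 181 had p under 0.05 before adjustment (background 6.99%). Of the 16, 8 then had such a p, and 11 were still 10 points or more apart in the same direction. This choice leaves 1 to 10 cytosines for each of them. With cytosines as the units of the test in place of reads, 4 members were called (background 0.0653%), 3 of them among the 16. Fisher's exact test on each promoter's summed reads called 107 (background 1.79%), 11 of them among the 16, but 89 of the 107 differed by under 10 points once each cytosine was compared with itself.

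**Figure D5:**
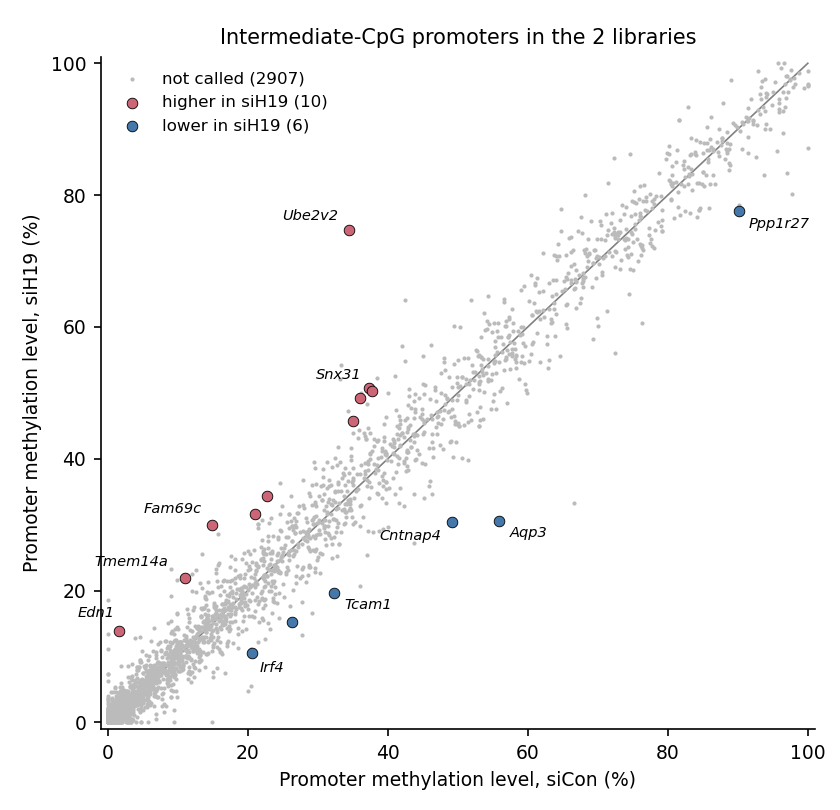
Level of each of the 2923 intermediate-CpG promoters in siCon (x axis, %) and siH19 (y axis, %), with the 10 called higher in siH19 in red, the 6 called lower in blue and the line of equal levels in grey. Most points hug the line, and the called promoters lie mainly between 10% and 60% methylation.

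Among the 10 higher in siH19 was Fam69c, which encodes a kinase-like protein of the secretory pathway. It stood at 14.9% in siCon and 30.0% in siH19 over 30 cytosines, all downstream of the start (difference 15.1 points, interval 11.4 to 18.7, adjusted p = 2.92e-10 in the stratified exact test). Of the 30, 23 were higher in siH19. The cytosines at 973 to 999 bp carried most of it, with 0% to 25% in siCon and 9.38% to 61.3% in siH19. At 973 to 979 bp they had 10 or 12 reads in siCon and 31 to 35 in siH19. At 982 to 999 bp they had 20 to 24 and 60 to 69. Whether the same molecules were counted more than once there was not tested. With cytosines as the units its adjusted p was 0.00154, and with 1 cytosine per fragment and strand Fam69c differed by 11.1 points (adjusted p = 0.296, stratified exact test).

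Tmem14a, a small transmembrane protein gene, stood at 11.01% and 21.9% over 18 cytosines, of which 16 were higher in siH19 (10.9 points, interval 6.69 to 15.1, adjusted p = 1.15e-05 in the stratified exact test). On the plus strand its 5 cytosines nearest the start were at 4.26% to 8.51% on 47 reads in siCon and at 25% to 50% on 15 or 16 reads in siH19. Snx31, a sorting nexin gene, stood at 37.7% and 50.3%, and Pgbd1, a gene derived from a piggyBac transposase, at 37.3% and 50.8%. Diras1, a small GTPase gene, was at 22.8% and 34.4%, Kcnn3, a calcium-activated potassium channel gene, at 21.03% and 31.7%, and Cypt12 at 36.1% and 49.3%. For these 5 the adjusted p in the stratified exact test lay between 0.000482 and 0.0344. With 1 cytosine per fragment and strand the differences were 6.91 points for Snx31, 4.53 for Pgbd1 and 2.84 for Kcnn3, against 17.3 for Diras1 and 23.002 for Cypt12, and none was called.

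Edn1, the precursor of endothelin, shows how few molecules a call can rest on. Its level was 1.62% in siCon and 13.8% in siH19 over 10 cytosines of 1 fragment (12.2 points, interval 5.77 to 18.6, adjusted p = 0.00261 in the stratified exact test). All 5 plus-strand cytosines had 9 reads in each library, with 0% in siCon and 33.3% in siH19 at every one. The minus-strand cytosines had 26 and 18 reads and lay between 0% and 3.85% in siCon and between 0% and 11.1% in siH19. With 10 reads required, the plus strand dropped out and 3.25 points remained (adjusted p = 0.601, stratified exact test).

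Upstream sequences of 2 of the 6 lower members are given from GRCm38, both on the plus strand. Irf4, a transcription factor of lymphoid cells, is from chr13:30748976-30749225 and Tcam1, a cell adhesion gene of testis, from chr11:106276422-106276671.
Irf4: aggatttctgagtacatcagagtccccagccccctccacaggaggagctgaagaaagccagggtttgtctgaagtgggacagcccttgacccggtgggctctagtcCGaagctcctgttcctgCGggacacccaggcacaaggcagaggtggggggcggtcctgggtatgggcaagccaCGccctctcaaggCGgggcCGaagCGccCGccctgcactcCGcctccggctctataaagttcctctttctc
Tcam1: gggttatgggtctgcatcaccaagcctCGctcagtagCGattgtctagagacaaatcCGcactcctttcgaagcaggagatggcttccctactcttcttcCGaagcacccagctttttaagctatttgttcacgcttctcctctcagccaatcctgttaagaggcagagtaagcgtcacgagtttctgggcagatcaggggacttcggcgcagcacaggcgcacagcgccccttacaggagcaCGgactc
Over the promoter, Irf4 went from 20.5% in siCon to 10.52% in siH19 on 18 cytosines (-10.0 points, interval -15.8 to -4.22, adjusted p = 0.0169 in the stratified exact test). Of its 8 marked CpGs 6 were lower in siH19 and 1 higher, and the 3 nearest the start went from 33.3%, 33.3% and 35.0% on 40 to 42 reads to 14.8%, 7.69% and 23.1% on 26 or 27 reads. Tcam1 went from 32.3% to 19.7%, with all 14 cytosines lower (-12.6 points, interval -20.1 to -5.07, adjusted p = 0.0362 in the stratified exact test). At its 5 marked CpGs the level went from between 9.09% and 55.4% on 33 to 66 reads to between 0% and 43.5% on 8 to 23 reads. The 14 cytosines came from 3 fragment strands. With 10 reads required 5 cytosines were left, 14.1 points lower in siH19 (adjusted p = 0.172, stratified exact test).

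Ppp1r27, the gene of a protein phosphatase regulator, went from 90.1% to 77.6% over 11 cytosines (adjusted p = 0.00380 in the stratified exact test). The 4 cytosines at 851 to 864 bp carried the difference, with 73.3% to 88.4% in siCon and 50% to 66.7% in siH19, while 5 cytosines were equal in both. Trpm2, a cation channel gene, went from 26.4% to 15.3%, and with 1 cytosine per fragment and strand its difference was -2.74 points. The other 4 called members had fewer cytosines or a symbol that the naming rule leaves out. Ube2v2, a ubiquitin-conjugating enzyme variant, stood at 34.4% and 74.7% on 5 cytosines of 1 fragment strand. It had on average 5.8 reads per cytosine in siCon and 12.4 in siH19. Aqp3, a water and glycerol channel gene, stood at 55.9% on 6.89 reads per cytosine in siCon and at 30.6% on 35.7 in siH19. Cntnap4, of the neurexin family, stood at 49.1% and 30.4% on 8 cytosines. The last, 6430531B16Rik, was at 35.0% and 45.8%. Of the 16 called members 9 were read more than 1.5 times as deeply in one library as in the other, against 31.1% of all members.

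No member of the 11 lists was called, against 0.547% of all members and 0.225% of all promoters. At these shares few calls could be looked for among 173 entries, so this says little about the lists. At any size of difference, 7 of 173 list entries had an adjusted p under 0.05 in the stratified exact test (4.05%, background 6.94% of all promoters), each with a difference under 7 points. In the mesenchymal list Mmp2, a matrix metalloproteinase gene, was at 14.2% in siCon and 10.3% in siH19 (exact test, adjusted p = 0.00330). In the epithelial list it was Jup (1.23 points, exact test, adjusted p = 0.0208). The imprinted list had Tnfrsf23, a decoy receptor gene, at 6.89% and 0.565% (exact test, adjusted p = 0.0125). Klf1, a red-cell transcription factor, was at 14.2% and 19.8% (exact test, adjusted p = 0.0489), and Tlr3, a receptor for double-stranded RNA, at 3.81% and 1.06% (exact test, adjusted p = 0.0495). In the methyl-cycle list Bhmt2, a homocysteine methyltransferase, was at 36.8% and 43.0% (exact test, adjusted p = 0.0483) and Shmt2, a mitochondrial enzyme of one-carbon metabolism, at 1.60% and 0% (exact test, adjusted p = 0.0356). Apart from Jup and Klf1, these were named after their values were seen.

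Single cytosines were read in the same way. A cytosine counted as strongly changed with at least 33 points of difference and p under 0.05 in Fisher's exact test, before adjustment. Of the members' 59580 cytosines 478 were (0.802%, background 0.957% of all autosomal cytosines outside the restriction sites), 228 higher in siH19 (background 0.501%) and 250 lower (background 0.457%). They lay in 372 members (12.7%, background 12.4% of all promoters), and 71 members had at least 2 in 1 direction (2.43%, background 3.43%). After adjustment over all cytosines 21 of the members' cytosines had an adjusted p under 0.05 in Fisher's exact test (background 0.0384%).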

How the data were processed

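Reduced representation bisulfite sequencing was done on 1 siCon and 1 siH19 library. As the paper's methods state, the authors aligned reads with Bismark in non-directional mode, trimmed filled-in bases and called each cytosine as C over C plus T. Per the labels' processing notes the build was mm10 and base calls came from bcl2fastq 1.8.4. The deposited files give, for each CpG cytosine and strand, the methylated and total reads as text (counts) and a score, which matched the whole-number part of 1000 times the methylated fraction at 100% of cytosines. All 4668101 cytosines shared on assembled chromosomes lay on CpGs of GRCm38.

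Starts are the most 5′ ones of GENCODE basic genes. Cytosines needed 5 reads in both libraries, promoters 3 cytosines. Each cytosine was weighted by n1 × n2 / (n1 + n2), where n1 and n2 are its reads in both libraries. The stratified exact test was checked on simulated data with separate reads for each cytosine. Cytosines inside CCGG or TCGA (27905 in members, mean 57.8% in siCon and 58.4% in siH19, against 20.0% and 20.1% outside) were left out. The members and gene lists were chosen with earlier results of these data known.

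Symbols of the Gm or Rik form apart, the text names the 8 largest called differences each way (at least 10 cytosines, both strands the same way), the 8 lowest and highest levels (1 of the lowest is not reported here), the 4 most and least even middling promoters, the 5 largest steps each way and, per list, the 3 best-covered low and high members. Called members outside this rule were named after their values were seen. Computation used Python 3.11.15, numpy 2.4.6, pandas 2.3.3, scipy 1.17.1 and numba 0.67.0.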

Additional observations from a re-analysis of the deposited data

How the results depend on the processing

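No tested difference of a called member changed sign under the alternatives run for it. Of these recomputed differences 46 held, 33 lost their call and 11 moved out of the counting interval. Of the other recomputed values 142 kept within their limits and 39 did not. Strongly changed cytosines went from 228 higher and 250 lower to 165 and 148 with 10 reads required, so their balance turned. Unweighted, the siCon and siH19 medians changed order in 5 of 11 lists, the epithelial (48.8% and 47.5%), pluripotency (31.3% and 34.7%), haematopoietic and immune-cell, methyl-cycle and neuronal and glial ones. No paired analysis was possible because each group is 1 library. Keeping restriction-site cytosines gave member medians of 30.6% in siCon and 31.0% in siH19, low shares of 25.3% and 24.7%, intermediate shares of 68.5% and 68.8%, a median difference of 0.227 points and 2 lower calls, and 4 of its 9 calls were among the 16. Within 500 bp of the start, medians were 8.68% and 8.69%, low shares 65.1% and 64.8% and intermediate shares 30.0% and 30.1%, and 9 of 18 calls were among the 16. With 10 reads required, medians were 10.1% and 10.3%, the last downstream bin 17.1% and 17.6%, higher calls 6, and 8 of 11 calls were among the 16. Cypt12, Edn1, Pgbd1 and Tcam1 lost their calls, and Aqp3, Cntnap4, Trpm2 and Ube2v2 had under 3 cytosines left. Unweighted, the siH19 median was 12.4%. With limits of 10% and 90%, shares were 47.8% and 47.3% low, 49.8% and 50.4% intermediate and 2.43% and 2.33% high. Calls higher and lower in siH19 numbered 65 and 42 when a promoter's reads were summed before Fisher's exact test, 3 and 1 with cytosines as units, 70 and 48 with no minimum difference, 1 and 1 at 20 points, and 0 and 0 with 1 cytosine per fragment and strand, an alternative added after the data were seen, which has fewer cytosines and reads. With p adjusted over all cytosines, 7 strongly raised and 3 strongly lowered ones were left. Shares over all promoters are not given for calls with restriction-site cytosines kept, within 500 bp, with 10 reads required or at 20 points. Shares over all cytosines are likewise not given for the alternatives of the strongly changed ones. These counts are therefore not set against a background. The median counting error of a difference was 4.98 points with 3 to 5 cytosines and 0.807 with 41 to 109.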
